A study of Triticum aestivum with 4 samples.

Results

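Drought and control roots of the Brazilian bread wheat cultivar MGS1 Aliança were compared through the reads of 1 library each. Drought plants were kept at 75% of field capacity for their first 2 weeks and got no water in the 3 weeks after, while control plants stayed at 100% of field capacity for all 5 weeks. Both sets were 5 weeks old and at the tillering stage when the root systems were taken, 3 plants had been sown per pot in soil, sand and vermiculite in a glasshouse, and the labels name no treatment other than water supply. Sequencing was done by 454 pyrosequencing, and the reads of both root libraries were assembled together into isotigs (transcripts) grouped in isogroups, which approximate genes. An isogroup was represented by its isotig with most reads over both libraries. Of 24900 root isogroups, 6268 had at least 10 reads over the 2 libraries and were compared, and they are described here. The other 18632 had too few reads.

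Roots sense drying soil first and answer through abscisic acid (ABA), a hormone that releases SnRK2 kinases from the phosphatases that hold them back and so switches on genes for dehydration tolerance. Late embryogenesis abundant (LEA) proteins and dehydrins shield membranes and enzymes in cells that lose water, and sugars of the raffinose family and proline act as compatible solutes. Aquaporins carry water across the plasma membrane and the tonoplast, nitrate and phosphate transporters take up nutrients that reach the root dissolved in soil water, and lignin, cellulose and peroxidases build the wall of growing root cells. Bread wheat is hexaploid, so most of its genes exist in several homoeologous copies, which a transcript assembly may keep apart as separate isogroups.

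The drought library held 300665 reads and the control library 305731. The representative isotigs took 171151 drought and 178881 control reads, and these sums were the totals against which every share was computed. A single isogroup, whose best match RRT15 is an open reading frame within yeast ribosomal DNA, held 41987 drought reads (24.5%, 95% exact Clopper-Pearson interval 24.3 to 24.7) and 39888 control reads (22.3%, 22.1 to 22.5). All ribosomal RNA-like isogroups together held 28.5% of the drought reads and 26.7% of the control reads. Markers of leaf tissue (Rubisco small subunit and activase, antenna and photosystem proteins) were at 8 drought and 14 control reads in the root libraries, against 3357 and 18492 reads in the drought and control leaf libraries of the same plants. Markers of roots (nitrate, ammonium and phosphate transporters, nicotianamine synthases, tonoplast aquaporins TIP1 and TIP2) were at 53.8 reads per 100000 in drought roots and 572 per 100000 in control roots, against 34.1 and 73.3 per 100000 in drought and control leaves. The root markers were therefore lower in the drought library. Many of them are members of the aquaporin and nutrient groups described below, their part in the other results was not tested, and fewer cells of a type and less RNA per cell cannot be told apart in whole root systems.

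An isogroup was called higher or lower in drought roots when the MARS model of DEGseq, which sets the difference of 2 read counts against random sampling of reads, gave an unadjusted p under 0.001. By this rule 525 isogroups were higher in drought roots (8.38% of those compared) and 674 were lower (10.8%). Called higher isogroups took 41.3% of the drought reads and 25.0% of the control reads, most of them reads of the RRT15 isogroup, and called lower isogroups took 2.96% of the drought reads and 15.6% of the control reads. By a rule of size alone, 691 isogroups (11.0%) were at least 4-fold higher and 898 (14.3%) at least 4-fold lower. The median log2 ratio of drought to control shares over all isogroups was -0.09, with a library without reads set to 3 reads. There was no replicate library, so the test compares these 2 libraries and not the 2 conditions, and the 95% exact binomial intervals given with the folds cover counting error only. With a biological coefficient of variation of 0.4 taken for root samples, the exact test of edgeR called 132 isogroups higher and 111 lower, all of them among those called here.

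**Figure D1:**
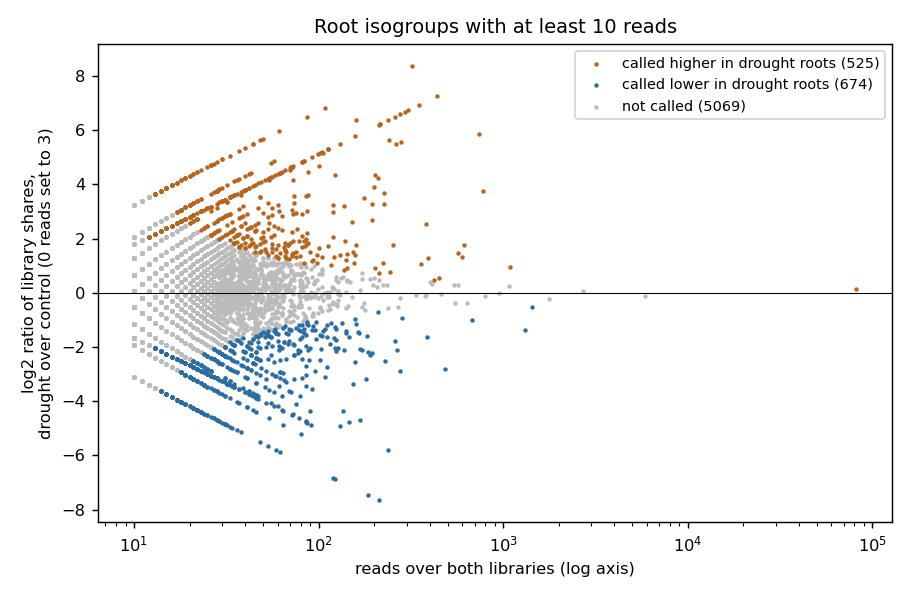
Each point is 1 of the 6268 compared isogroups. The horizontal axis gives its reads over both libraries on a log scale and the vertical axis the log2 ratio of its share in drought roots to its share in control roots, with 0 reads set to 3. The 525 higher and 674 lower isogroups fan out on both sides of 0, and the isogroup with most reads lies close to 0.

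In 169 of the higher isogroups the control library held no read, and in 207 of the lower ones the drought library held none. No read does not show absence at this depth, and 74 and 123 of these isogroups had only 10 to 19 reads in all. Where a library had no read, the fold below is a lower bound that takes 3 reads for that library. Isogroups are named by their best match, which lay in Arabidopsis thaliana for 5318 of the 6268, and roles given below are those known for that match. Matches at an E-value of at most 0.001 were found for 5687 isogroups. The 581 without one were more often called: 120 of them (20.7%) were higher and 67 (11.5%) lower, beside 7.12% and 10.7% of the matched isogroups. The isogroup with the highest number of drought reads among those without a control read had no match, with 440 drought reads and 0 control reads (isogroup11067, at least 153-fold higher). A second unmatched isogroup had 305 drought reads and 0 control reads (isogroup14803, at least 106-fold higher). In the other direction, isogroup19909 had 0 drought reads and 57 control reads (at least 18.2-fold lower).

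The 15 higher isogroups with the largest fold at the near bound of the interval are described here, first the 6 that match proteins of dehydration and raffinose metabolism. LEA14, a LEA protein, had 215 reads in drought roots and 0 in control roots, at least 74.9-fold higher. SIP2, an alpha-galactosidase that in Arabidopsis acts on raffinose, had 726 drought reads and 13 control reads, a 58.4-fold difference (33.9 to 110), and a second SIP2 isogroup had 273 drought reads and 6 control reads (47.6-fold, 21.6 to 131). AT3G15670, a LEA protein of another class, supplied 2 of the 15, with 113 and 112 drought reads and 0 control reads in both. AT1G04560, a membrane protein of the AWPM-19 family, which was first described in wheat plasma membranes under ABA, had 112 drought reads and 0 control reads (at least 39.0-fold higher). These isogroups were thus among the well-read ones of drought roots and all but unread in control roots.

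Other members of the 15 have roles of other kinds. ERF1-2, a translation release factor that ends protein synthesis at stop codons, had 102 drought reads and 0 control reads (at least 35.5-fold higher). DAA1, an ATPase of the AAA family, had 99 drought reads and 0 control reads, and ChlAKR, an aldo-keto reductase that detoxifies reactive carbonyls, had 81 and 0. OSM34, an osmotin of the thaumatin family, also had 81 drought reads and 0 control reads (at least 28.2-fold higher). AT5G05960, a small protein of the lipid transfer family, had 236 drought reads and 5 control reads (49.3-fold, 20.8 to 153). The remaining 4 rest on weak matches, of at most 35% identity and E-values of 2e-06 to 6e-05, and their names say little. BA_1222, a hypothetical protein of Bacillus anthracis, was the match of 2 of them, with 350 and 318 drought reads against 0 and 1 control reads. NRPD1B had 105 drought reads and 0 control reads, and AT3G21000 had 92 and 0.

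The 15 lower isogroups with the largest near-bound fold were led by TIP1;3, a tonoplast aquaporin, with 1 read in drought roots and 211 in control roots (202-fold lower, 35.8 to 8011). MC1, a metacaspase (a cysteine protease of programmed cell death in Arabidopsis), supplied 3 of the 15, with 1, 0 and 1 drought reads against 185, 87 and 121 control reads. PHT1;5, a phosphate transporter, had 0 drought reads and 91 control reads (at least 29.0-fold lower). NIA2, a nitrate reductase, had 0 drought reads and 72 control reads (at least 22.96-fold lower). TIP2;3, a second tonoplast aquaporin, had 0 drought reads and 64 control reads. Proteases, transporters and a nitrogen enzyme thus all stood among the 15.

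AT1G65870, a dirigent-like protein of the family that steers phenolic coupling, had 0 drought reads and 85 control reads (at least 27.1-fold lower). AT5G10770, an aspartyl protease, had 0 and 78 reads in drought and control roots. LOX5, a lipoxygenase that oxidises membrane fatty acids, had 0 drought reads and 63 control reads (at least 20.1-fold lower), while its other 2 isogroups, not called, had 33 and 9 drought reads against 16 and 2 control reads. AAP6, an amino acid permease, had 0 drought reads and 52 control reads. OMT3, an O-methyltransferase matched in sorghum, had 4 drought reads and 126 control reads (30.1-fold lower, 11.5 to 112). A second AT5G05960 isogroup, of the same match as the higher one, had 6 drought reads and 161 control reads (25.7-fold lower, 11.5 to 71.0). The other 2 were AT4G24340, a protein of the phosphorylase superfamily, with 0 drought reads and 47 control reads, and an isotig of 7205 bases whose match is the bacterial fatty acid ligase fadD26, with 1 drought read and 118 control reads. All 30 of these isogroups were called in the same direction under every one of the 12 alternatives tried. The alternatives reuse the counts by which the 30 were picked, so this was largely set by the choice and is no separate support.

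**Figure D2:**
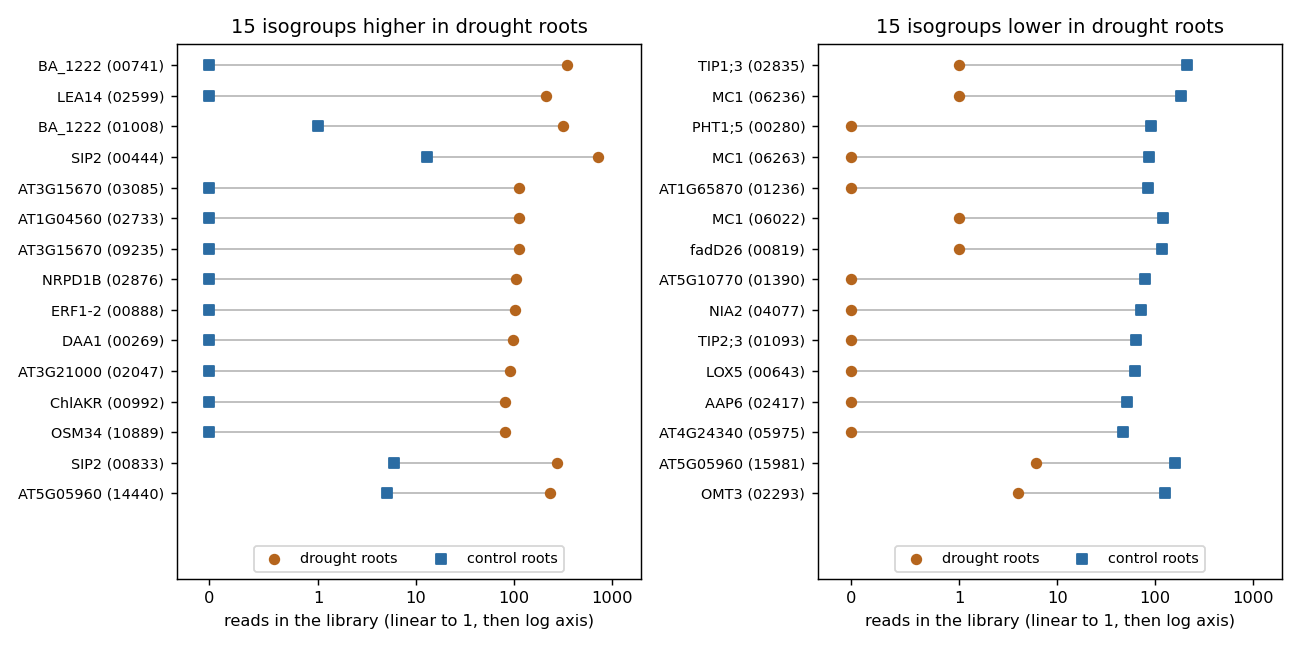
Reads of the 15 higher (left) and 15 lower (right) isogroups with the largest fold at the near bound of the interval, drought roots as circles and control roots as squares, on an axis that is linear to 1 read and logarithmic beyond. Numbers in parentheses tell apart isogroups of the same match. Of the 15 on the left, 11 had no control read, and of the 15 on the right, 9 had no drought read.

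LEA proteins and dehydrins were the group with the largest share of higher members. Of 29 isogroups compared, 22 were higher, 0 were lower and 7 were not called. Their median log2 ratio was 2.65, and their summed reads were 1247 in drought roots and 137 in control roots (9.51-fold, 7.97 to 11.4). Among the 22, DHN1, a dehydrin, had 33 and 29 drought reads in its 2 isogroups and 0 control reads in both. LEA7 had 31 drought reads and 0 control reads (at least 10.8-fold higher). AT4G36600, also a LEA protein, had 72 and 0, but this name rests on a weak match (E-value 0.0002, 47% identity). Most control reads of the group came from 4 isogroups that were well read without drought: ERD10, an acidic dehydrin, had 45, 45 and 30 drought reads against 17, 23 and 35 control reads, and DI21 had 95 drought reads and 24 control reads. The ERD10 isogroups with 23 and 35 control reads were not called. An assumed coefficient of variation of 0.4 left 13 of the 22 called.

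The raffinose group had 8 higher and 2 lower isogroups of 11, with a median log2 ratio of 3.23. Galactinol synthases make galactinol, the galactosyl donor of raffinose, and 5 of their 6 isogroups were higher. GolS2 had 48, 18 and 15 drought reads against 5, 2 and 1 control reads in its 3 isogroups. GolS3 had 15 drought reads and 0 control reads in the called isogroup and 15 and 5 in the other, and GolS1 had 12 and 1. SIP1, known in Arabidopsis as a raffinose synthase, had 12 drought reads and 0 control reads (at least 4.18-fold higher). The 2 lower members were AGAL2, an alpha-galactosidase, with 3 drought reads and 70 control reads (22.3-fold lower, 7.33 to 111), and DIN10, a dark-inducible protein of the raffinose synthase family, with 3 and 52 (16.6-fold lower, 5.37 to 83.0). With the coefficient of 0.4, the 2 SIP2 isogroups alone remained called among the 8, and both lower ones did.

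For other solutes, P5CS1, the rate-limiting enzyme of proline synthesis, had 29 and 24 drought reads in its 2 isogroups against 1 and 4 control reads (30.3-fold, 5.03 to 1238, for the first). DELTA-OAT, which feeds proline from ornithine, had 29 drought reads and 4 control reads (7.58-fold, 2.66 to 29.7). ALDH10A9, a betaine aldehyde dehydrogenase, had 46 and 7 (6.87-fold, 3.08 to 18.0). In the same group PMEAMT, a phosphoethanolamine methyltransferase on the way to choline, was lower, with 7 drought reads and 55 control reads (7.52-fold, 3.41 to 19.6). In all, 4 of 7 isogroups of proline and glycine betaine were higher and 1 was lower, and a coefficient of 0.4 left 1 higher isogroup called.

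Early dehydration-response and membrane proteins had 5 higher and 0 lower isogroups of 13, with a median log2 ratio of 1.99, and 2 of the 5 remained called with a coefficient of 0.4. All 3 AT1G04560 isogroups were higher, with 112, 62 and 18 drought reads and no control read. COR413-PM1, a cold-regulated plasma membrane protein, had 25 drought reads and 3 control reads in the called isogroup (8.71-fold, 2.66 to 45.1). ERD15, a negative regulator of ABA responses in Arabidopsis, was not called in any of its 3 isogroups, with 0, 8 and 10 drought reads against 12, 17 and 16 control reads.

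Only 7 isogroups of ABA synthesis were compared, too few to read their 0 higher calls against the 8.38% of all isogroups, and 2 were lower, of which 1 remained called with a coefficient of 0.4. ABA3, a sulfurase that activates the last enzyme of ABA synthesis, had 0 drought reads and 23 control reads in the lower isogroup and 6 and 5 reads in another. AAO2, an aldehyde oxidase, had 19 drought reads and 84 control reads (4.23-fold lower, 2.55 to 7.37). NCED3, the dioxygenase of the committed step, had 11 drought reads and 3 control reads and was not called. AO4, another aldehyde oxidase, had 14 and 3 (4.88-fold, 1.36 to 26.5) and was not called either.

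In ABA signalling, 5 of 22 isogroups were higher (22.7%, beside 8.38% of all isogroups) and 2 were lower (9.09%, near the 10.8% of all isogroups). Receptors, phosphatases and kinases were among those called. Of the receptors, PYL4 had 0 drought reads and 24 control reads in its called isogroup (at least 7.65-fold lower), and 0 and 2 drought reads against 12 and 11 control reads in the other 2. Of the phosphatases that oppose the signal, HAB1 had 32 drought reads and 1 control read in the called isogroup (33.4-fold, 5.59 to 1362), and HAI3 had 19 and 1 (19.9-fold, 3.16 to 825). ABI1, another phosphatase, had 11 drought reads and 0 control reads and was not called. OST1, the SnRK2 kinase central to ABA responses, was higher in 2 of 4 isogroups, with 28 and 14 drought reads against 2 and 0 control reads, while its other isogroups had 15 and 3 drought reads against 12 and 14 control reads. SNRK2-8, a related kinase, was lower, with 2 and 26 reads. A coefficient of variation of 0.4 left 1 higher and 1 lower isogroup called, HAB1 and PYL4.

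Aquaporins were the group with the largest share of lower members. Of 33 isogroups compared, 23 were lower and 0 were higher, the median log2 ratio was -2.89, and the summed reads were 237 in drought roots and 1970 in control roots (7.95-fold lower, 6.95 to 9.14). Tonoplast and plasma membrane aquaporins were both lower. Of the plasma membrane forms, PIP1;4 had 6 drought reads and 130 control reads in its most affected isogroup (20.7-fold lower, 9.27 to 57.5). PIP2A had 17, 3, 5, 2 and 6 drought reads against 163, 83, 66, 39 and 50 control reads in its 5 lower isogroups, and all 5 PIP1;5 isogroups were lower. GAMMA-TIP, a tonoplast form abundant in Arabidopsis roots, had 13 drought reads and 141 control reads in the called isogroup (10.4-fold lower, 5.88 to 19.97) and 15 and 40 in the other. NIP5;1, a boric acid channel in Arabidopsis, had 7 drought reads and 57 control reads. Only PIP3, with 8 drought reads and 4 control reads, and a TIP1 isogroup, with 8 and 7, had a ratio above 1, and neither was called. With the coefficient of 0.4, 11 of the 23 remained called.

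Nitrogen uptake and assimilation had 18 lower and 2 higher isogroups of 35, with a median log2 ratio of -1.94. Lower isogroups stood at every step from uptake to amino acids. NRT2:1 and NRT1.8, nitrate transporters, had 0 drought reads against 14 and 23 control reads, and AMT2, an ammonium transporter, had 0 and 20. WR3, a partner protein that nitrate uptake by NRT2 needs in Arabidopsis, had 1 drought read and 20 control reads. Next in the pathway, both nitrate reductases were lower, NIA2 as given above and NIA1 with 5 drought reads and 74 control reads. NIR1, the nitrite reductase, had 4 drought reads and 86 control reads (20.6-fold lower, 7.75 to 77.2). GS2, the plastid glutamine synthetase, had 0 drought reads and 32 control reads (at least 10.2-fold lower). The 2 higher isogroups were glutamine synthetases of the cytosolic kind, GSR with 62 drought reads and 0 control reads (at least 21.6-fold higher) and GSR2 with 22 and 1 (22.99-fold, 3.72 to 949), while 3 other GSR2 isogroups, not called, had 5, 6 and 7 drought reads against 17, 17 and 25 control reads. The other GSR isogroup was lower, with 2 drought reads and 29 control reads. A coefficient of 0.4 left 5 of the 18 lower and 1 of the 2 higher isogroups called.

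For other nutrients, 12 of 40 isogroups were lower and 3 were higher, and 4 lower and 0 higher remained called with a coefficient of 0.4. PHT1;4, a phosphate transporter, had 3 drought reads and 57 control reads (18.2-fold lower, 5.91 to 90.8), and its other isogroup, not called, had 25 and 8. NAS4 and NAS3, nicotianamine synthases that supply the metal chelator from which grasses also make their phytosiderophores, had 0 drought reads against 29 and 22 control reads. The nicotianamine aminotransferase naat-A, the next enzyme towards phytosiderophores, had 1 drought read and 26 control reads (24.9-fold lower, 4.09 to 1020). The 3 higher isogroups were MT3, a metallothionein, with 26 drought reads and 2 control reads, FER4, an iron-storing ferritin, with 29 and 4, and KUP7, a potassium transporter, with 15 and 2.

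**Figure D3:**
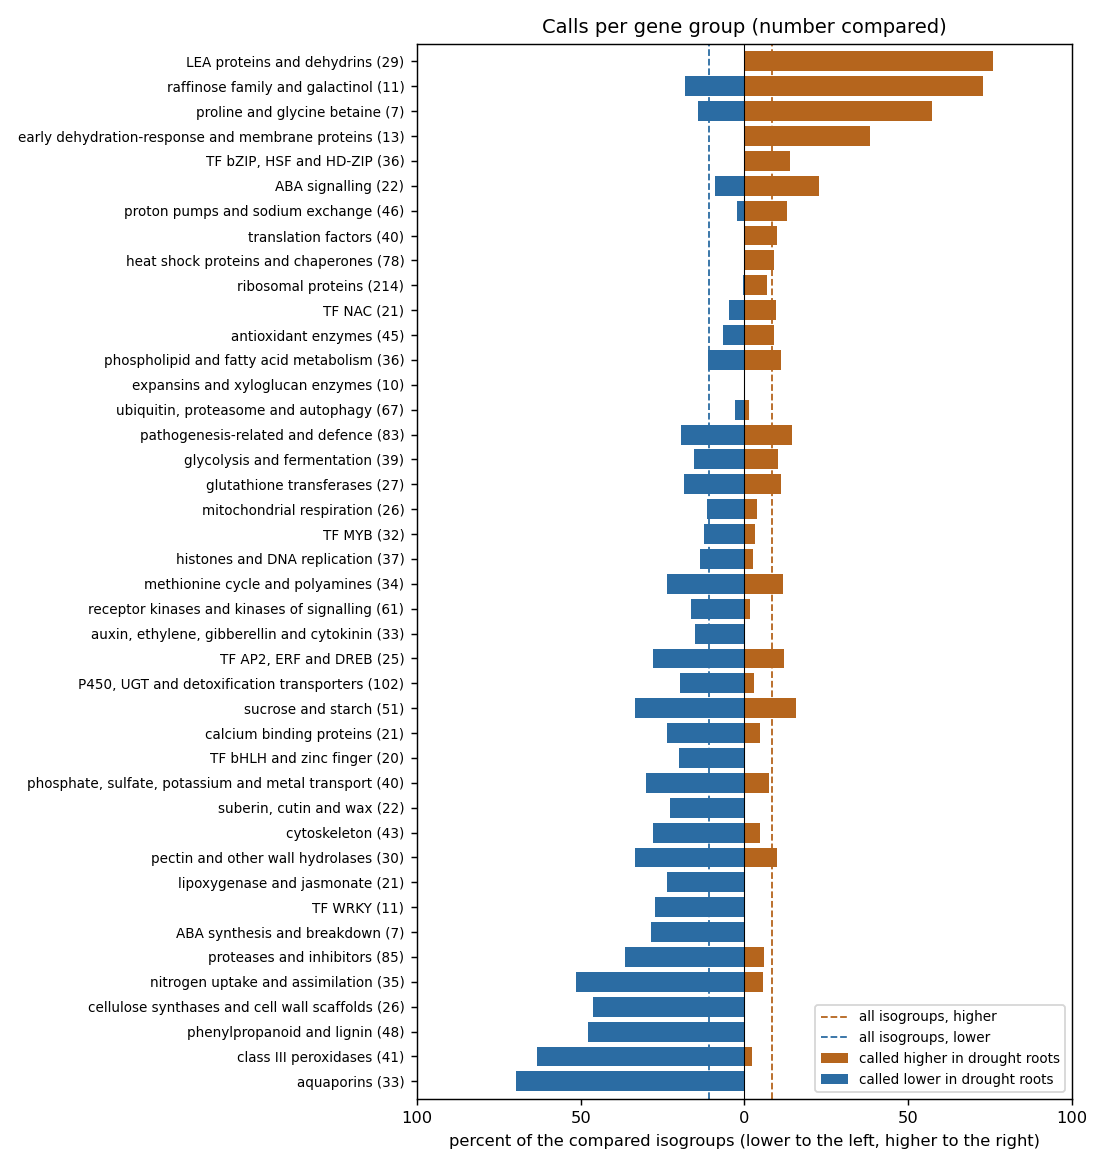
Percent of the compared isogroups of each gene group called higher (to the right) and lower (to the left) in drought roots, with the number compared in parentheses and dashed lines at the shares of all isogroups, 8.38% and 10.8%. LEA proteins stand at one end, with 22 of 29 higher, and aquaporins at the other, with 23 of 33 lower.

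Of the cell wall groups, peroxidases, phenylpropanoid and lignin genes, and cellulose synthases lay on the lower side. Class III peroxidases, which cross-link wall phenolics, had 26 lower isogroups and 1 higher of 41, with a median log2 ratio of -2.35 and summed reads of 227 in drought roots and 976 in control roots (4.11-fold lower, 3.56 to 4.77). PRX52, a peroxidase of lignin formation in Arabidopsis, was lower in 5 of 7 isogroups, with 0 drought reads against 30 control reads in the most affected one (at least 9.57-fold lower). The single higher peroxidase matched AT1G71695, with 52 drought reads and 16 control reads (3.40-fold, 1.91 to 6.37), while 6 other isogroups of this match were lower.

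In phenylpropanoid and lignin synthesis, 23 of 48 isogroups were lower and 0 higher, with a median log2 ratio of -1.95. PAL4, a phenylalanine ammonia-lyase at the entry of the pathway, had 2 drought reads and 34 control reads. HCT, a hydroxycinnamoyl transferase, had 1 drought read and 21 control reads in its lower isogroup and was not called in 4 others. Not all of the 23 make lignin: 10 of them match OMT2 or OMT3, O-methyltransferases of flavonoids and of alkylresorcinol-like phenols, and 3 match OMT1, a flavone O-methyltransferase of wheat. The 6 OMT3 isogroups were all lower, with 43 drought reads and 427 control reads in sum. A coefficient of variation of 0.4 left 5 of the 23 called, and 8 of the 26 peroxidases.

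Cellulose synthases and wall scaffold proteins had 12 lower and 0 higher isogroups of 26, with a median log2 ratio of -2.14. CESA1, a cellulose synthase of the primary wall, had 11 and 1 drought reads against 50 and 19 control reads in its 2 lower isogroups. IRX1 and IRX3, cellulose synthases of the secondary wall, had 7 and 6 drought reads against 41 and 33 control reads. CSLD2, which Arabidopsis uses in root hairs, had 0 drought reads in both lower isogroups, against 18 and 14 control reads. None of the 12 remained called with a coefficient of 0.4. Of expansins and xyloglucan enzymes, which loosen the wall, 0 of 10 were called by the MARS model and by edgeR with the coefficient of 0.4. Pectin and other wall hydrolases had 3 higher and 10 lower isogroups of 30, but 2 higher and 0 lower with that coefficient. Tubulins, which form the microtubules along which cellulose is laid down, led the cytoskeleton group, of which 12 of 43 isogroups were lower and 2 higher: all 6 TUA6 isogroups were lower, and TUB8 had 4 drought reads and 42 control reads (10.05-fold lower, 3.64 to 38.6). Again none of the 12 remained called with the coefficient of 0.4. Of the 2 higher isogroups 1 did, ADF11, with 21 drought reads and 0 control reads.

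**Figure D4:**
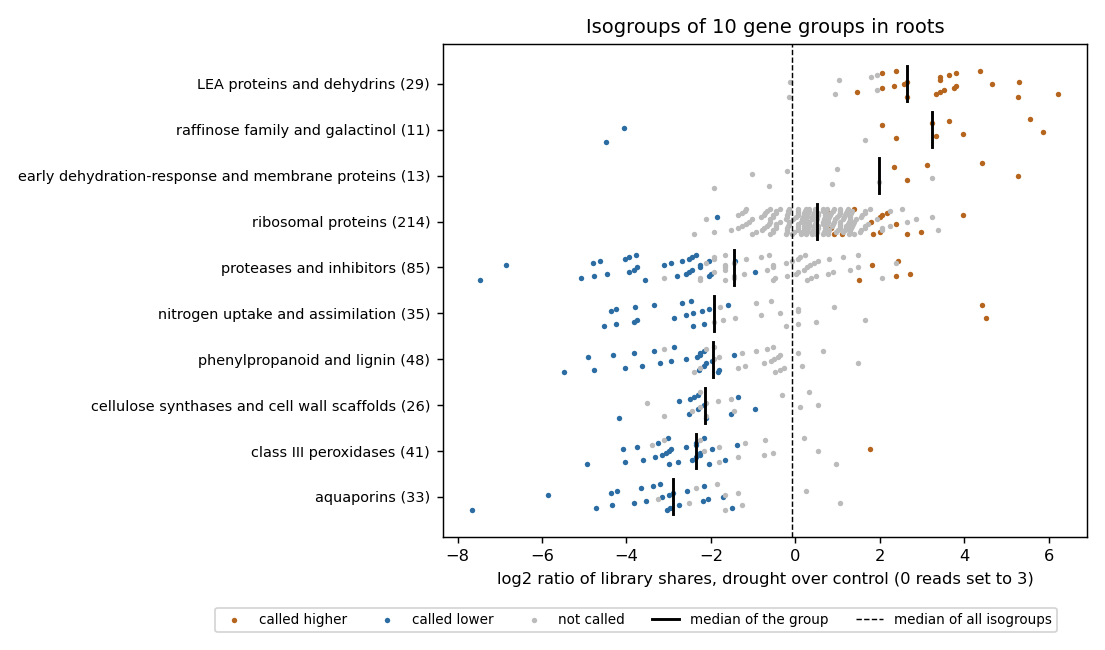
Log2 ratio of drought to control shares of every compared isogroup of 10 gene groups, with 0 reads set to 3, a bar at the median of each group and a dashed line at the median of all isogroups (-0.09). Colours mark isogroups called higher, lower or not called. The medians run from 3.23 in the raffinose group to -2.89 in aquaporins, and the 2 lower isogroups of the raffinose group lie far from its other members.

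Proteases and inhibitors had 31 lower and 5 higher isogroups of 85. The lower ones were concentrated in few matches: MC1 was lower in 7 of 8 isogroups and AT5G10770 in 7 of 9. SAG12, a cysteine protease known from senescing leaves, was lower in 5 of 6. Of the 5 higher isogroups, 3 matched GAMMA-VPE, a vacuolar processing enzyme, with 19, 35 and 49 drought reads against 0, 7 and 18 control reads. CYSB, a cystatin that inhibits cysteine proteases, was higher, with 54 drought reads and 16 control reads (3.53-fold, 1.99 to 6.60). With a coefficient of 0.4, 12 of the 31 lower isogroups and none of the 5 higher ones remained called.

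Sugar metabolism divided by isogroup. Of 51 isogroups of sucrose and starch, 17 were lower and 8 higher, but with a coefficient of 0.4 the balance turned to 2 lower and 5 higher. SAG29, a sugar transporter of the SWEET family, was higher in all 3 isogroups, with 72, 31 and 30 drought reads and no control read. SUS2, a sucrose synthase, had 69 drought reads and 4 control reads (18.0-fold, 6.73 to 68.0), and BAM1, a beta-amylase that degrades starch, had 35 and 2 (18.3-fold, 4.70 to 157) in 1 of 2 isogroups. SS1, a starch synthase, had 16 drought reads and 0 control reads. On the lower side, SWEET11 had 0 drought reads and 25 control reads in 1 of 3 isogroups (3 and 29 against 7 and 19 in the others, not called), STP1, a hexose importer, had 1 and 31, and ATTPS6, of the trehalose phosphate synthase family, had 11 and 98 (8.52-fold lower, 4.56 to 17.6). Of glycolysis and fermentation, ADH1, the alcohol dehydrogenase of fermentation, was higher, with 66 drought reads and 9 control reads (7.66-fold, 3.80 to 17.5), in a group of 4 higher and 6 lower isogroups of 39 (10.3% and 15.4%, near the 8.38% and 10.8% of all isogroups), of which none remained called with the coefficient of 0.4.

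Ribosomal proteins had mostly small ratios, more of them above 1 than below. Of 214 isogroups, 159 had a ratio above 1 and 55 below, but only 15 were called higher (7.01%, close to the 8.38% of all isogroups). A single one was called lower (0.47%, against 10.8% of all isogroups). Their median log2 ratio was 0.51, against -0.09 over all isogroups, and their summed reads were 3960 in drought roots and 2827 in control roots (1.46-fold, 1.39 to 1.54). RPS5A had 50 drought reads and 10 control reads (5.23-fold, 2.62 to 11.6). Heat shock proteins and chaperones had 7 higher isogroups of 78 (8.97%, also near the share of all isogroups). None was lower, against 10.8% of all isogroups. The small heat shock protein hsp16.9B had 40 drought reads and 0 control reads (at least 13.9-fold higher), and HSP101, a disaggregase, had 34 and 6. None of the 15 ribosomal proteins and 1 of the 7 chaperones remained called with a coefficient of 0.4.

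Among NAC transcription factors, 2 of 21 isogroups were higher (9.52%, near the 8.38% of all isogroups). In this family 1 isogroup was lower (4.76%, beside 10.8% of all isogroups). NAC100 had 186 drought reads and 13 control reads (14.95-fold, 8.53 to 28.6), and ATAF1, a second NAC factor, had 31 and 9 (3.60-fold, 1.67 to 8.60). NAC103 was lower, with 8 and 38 (4.54-fold, 2.09 to 11.3). HB-7, a homeodomain factor induced by ABA in Arabidopsis, had 12 drought reads and 1 control read in each of 2 higher isogroups, calls that Fisher's exact test did not make, and 21 and 9 in another that was not called. HSFC1, a heat stress factor, had 19 drought reads and 0 control reads (at least 6.62-fold higher). Of 32 MYB isogroups, 1 was higher (3.1%) and 4 were lower (12.5%, near the 10.8% of all isogroups). MYB305 had 23 drought reads and 0 control reads. MYB48 had 31 and 11 drought reads against 140 and 75 control reads in its 2 lower isogroups. Of AP2, ERF and DREB factors, 7 of 25 were lower and 3 higher, with DEAR3, a DREB repressor, at 0 and 4 drought reads against 15 and 30 control reads in its 2 lower isogroups. WRKY factors had 3 lower and 0 higher isogroups of 11: WRKY69 had 0 drought reads and 25 control reads (at least 7.97-fold lower). MYC4, a bHLH factor of jasmonate signalling, had 1 drought read and 22 control reads (21.0-fold lower, 3.40 to 869). With a coefficient of 0.4, the calls of NAC100, MYB305 and WRKY69 were the only ones to remain in these families.

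In the group of lipoxygenase and jasmonate genes, 5 of 21 isogroups were lower and 0 higher, and LOX5 alone remained called with a coefficient of 0.4. Besides LOX5, AOS, the allene oxide synthase, had 2 drought reads and 22 control reads (10.5-fold lower, 2.59 to 92.3), and OPR1, an oxophytodienoate reductase, had 0 and 13. Among genes of other hormones, 5 of 33 isogroups were lower (15.2%, near the 10.8% of all isogroups) and 0 higher. None of the 5 remained called with that coefficient. GA1 and GA3, which open gibberellin synthesis, had 2 and 0 drought reads against 22 and 13 control reads. AUX1, the auxin importer, had 13 drought reads and 41 control reads (3.02-fold lower, 1.59 to 6.14).

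Defence genes were called in both directions, with 12 higher and 16 lower isogroups of 83 (14.5% and 19.3%, beside 8.38% and 10.8% of all isogroups). Of these, 6 higher and 8 lower ones remained called with a coefficient of 0.4. Def2, a defensin, had 42 drought reads and 0 control reads (at least 14.6-fold higher). PR4, a chitin-binding protein, had 44 and 38 drought reads and 0 control reads in its 2 higher isogroups. The other PR4 isogroup was lower, with 0 drought reads and 14 control reads. BGL2, a beta-1,3-glucanase of the pathogenesis-related proteins, had 0 drought reads against 42 and 30 control reads in a pair of isogroups. Antioxidant enzymes had 4 higher and 3 lower of 45 (8.89% and 6.67%, near the shares of all isogroups), and none of the 7 remained called. DHAR2, a dehydroascorbate reductase, had 130 drought reads and 22 control reads (6.18-fold, 3.91 to 10.2). CAT2, a catalase, was higher in 3 of 5 isogroups, with 63, 37 and 64 drought reads against 13, 8 and 20 control reads, while APX1, an ascorbate peroxidase, was lower, with 24 and 92 (3.67-fold lower, 2.32 to 6.01).

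Called isogroups that share a best match mostly went the same way, but not always. How often isogroups of different matches would differ in direction was not tested. Leaving ribosomal RNA-like isogroups aside, there were 924 matches with at least 2 compared isogroups, and in 129 of them at least 2 isogroups were called: in 36 all called members were higher, in 68 all were lower, and in 25 there were members of both kinds. Such isogroups may be homoeologs, relatives in a gene family or parts of 1 transcript, which the files do not tell apart. With only matches at an E-value of at most 1e-20, the counts were 27, 62 and 21. AT5G05960 had the widest span, with 236 and 57 drought reads against 5 and 16 control reads in its 2 higher isogroups, and 6, 14 and 14 drought reads against 161, 97 and 65 control reads in its 3 lower ones. Summed, this lipid transfer protein had 339 drought reads and 351 control reads over all 8 of its isogroups, so that a count by best match shows almost no difference.

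SUS4, a sucrose synthase that cleaves sucrose, had 66 drought reads and 0 control reads in 1 isogroup (at least 22.99-fold higher), and 33, 44 and 34 drought reads against 197, 138 and 90 control reads in the other 3 (5.71-fold lower, 3.94 to 8.53, for the first). GSR, a cytosolic glutamine synthetase, had 62 drought reads and 0 control reads in the higher isogroup and 2 and 29 in the lower one (13.9-fold lower, 3.51 to 120). HIS1-3, a linker histone induced by drought in Arabidopsis, had 26 drought reads and 0 control reads in 1 isogroup, and 1 drought read and 21 control reads in another. EULS3, a lectin linked to ABA responses in Arabidopsis, was higher in 5 isogroups, with 84 drought reads and 4 control reads in the most affected one (21.9-fold, 8.26 to 82.4), and lower in 2, with 7 and 21 drought reads against 36 and 57 control reads. SAM-2, a synthetase of S-adenosylmethionine, had 24 drought reads and 2 control reads in the higher isogroup and 78 and 133 in its best-read lower one (1.63-fold lower, 1.22 to 2.19). PLDALPHA1, a phospholipase D that makes phosphatidic acid in ABA signalling, had 76 drought reads and 25 control reads in the higher isogroup and 0 and 16 in the lower one.

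**Figure D5:**
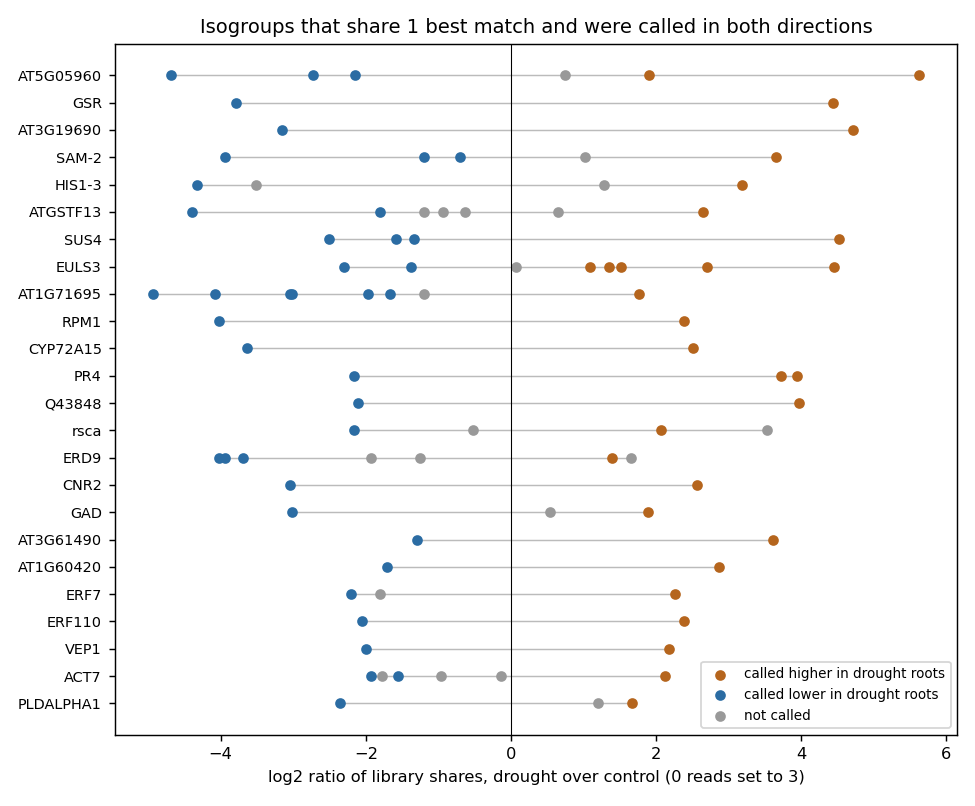
Log2 ratios of drought to control shares, with 0 reads set to 3, of isogroups that share 1 best match and were called in both directions. Each row is a match and each point an isogroup, coloured by its call, and rows are ordered by span. 24 of the 25 matches are shown, leaving out an unnamed zebrafish protein with 24 isogroups. AT5G05960 spans the widest range, and GSR has 1 isogroup on either side.

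The leaves of the same plants gave a drought and a control library of their own, assembled apart, in which reads were summed over all isogroups of a match. Of the matches among the 15 higher isogroups, some had leaf ratios on the same side. LEA14 had 73 drought reads and 2 control reads in leaves, against 275 and 0 in roots. SIP2 had 194 and 22 in leaves (9.73-fold, 6.24 to 15.9) and 1004 and 20 in roots. AT3G15670 had 204 and 46 in leaves (4.89-fold, 3.54 to 6.89) and 320 and 0 in roots. In leaves BA_1222 had 269 and 0, DAA1 44 and 4, OSM34 88 and 25, and ERF1-2 10 and 1. All of these were higher, with intervals that leave out 1. AT1G04560 and AT3G21000 were not matched by any leaf isogroup. ChlAKR and NRPD1B had 3 drought reads and 1 control read each in leaves, too few to tell, and AT5G05960 had 3 and 5. On the lower side, MC1 had 22 drought and 187 control reads in leaves (7.71-fold lower, 4.94 to 12.6) and 20 and 662 in roots. In leaves TIP1;3 had 1 and 17, AT5G10770 8 and 31, NIA2 15 and 49, and OMT3 2 and 41. Each of these was also lower in leaves, with an interval that leaves out 1. PHT1;5, TIP2;3 and fadD26 were matched by no leaf isogroup. LOX5 had 47 drought and 38 control reads in leaves (1.36-fold higher, 0.871 to 2.15), AT1G65870 had 2 and 0, AAP6 had 5 and 7, and AT4G24340 had 12 and 15. Differences between the tissues were not tested, since each side is 1 library.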

How the data were processed

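Root and leaf libraries of drought and control plants, 1 each, were sequenced on a Roche GS FLX Titanium. The authors assembled the reads of each tissue with the GS De Novo Assembler and deposited raw read counts per isotig and isogroup, in which reads of contigs shared by isotigs are repeated. The 3 plants of a pot were pooled before RNA extraction, so a library stands for 1 pool and there is no replicate. The RPKM values that the authors deposited follow from counts, isotig length and library reads and served only to obtain library totals. The deposited E-value (a p-value-like score of the BLAST match) served to accept matches at 0.001. Columns of the authors' own comparison (fold changes, z-scores, p-values) were not used.

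Counts were tested with the MARS model rewritten in Python 3.11.15 (numpy 2.4.6, scipy 1.17.1, pandas 2.3.3), with 0 set to 1, at an unadjusted p under 0.001, and the code was tested on simulated data. Isogroups with at least 10 reads over both libraries were kept. Folds carry 95% exact binomial (Clopper-Pearson) intervals, taken given the total of both counts. Folds given as "at least" take 3 reads for a library without reads (1.75 per 100000 in drought roots, 1.68 in control roots). They lie above the lower limit of that interval. Alternatives used edgeR 4.0.16 and DESeq2 1.42.0 (R 4.3.3). The isogroups compared and the 43 gene groups were chosen with earlier results of these data known, and 1 group (photosynthesis) had no isogroup with 10 reads. Groups were built from symbols, names, Pfam and GO terms of the matches, and unrelated proteins were removed by reading descriptions. Named isogroups are the 15 higher and 15 lower matched ones with the largest fold at the bound of the interval nearest 1, up to 4 called per group, the 5 with most reads, 3 without a match per direction, and those of matches called in both directions. Isogroups outside this rule were chosen after their values were seen: all members given as not called, and called members of AMT2, ATTPS6, AUX1, BAM1, BGL2, CAT2, CESA1, CYSB, DEAR3, DHN1, DI21, ERD10, FER4, GAMMA-TIP, GAMMA-VPE, GolS1, GolS2, GolS3, GSR2, HAI3, HCT, HSP101, IRX3, KUP7, LEA7, MT3, naat-A, NIA1, NIP5;1, NRT1.8, NRT2:1, OMT1, OMT2, OMT3, P5CS1, PAL4, PIP1;4, PIP1;5, PIP2A, PRX52, SAG12, SIP1, SS1, STP1, SUS2, SWEET11, TUA6 and WR3. Isotigs carry no wheat gene identifier, so no genome position or sequence is given.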

Additional observations from a re-analysis of the deposited data

Results flagged for a closer look

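In 14 gene groups the summed reads of drought against control libraries gave a ratio below 1 in roots and above 1 in leaves, both with 95% exact binomial intervals that leave out 1. Both ratios were taken over all isogroups with the best matches of the group, those under the minimum of 10 reads included, the difference between the tissues was not tested, and each value compares 1 library with 1 library. Photosynthesis markers took 2660 reads per 100000 in drought leaves and 13284 in control leaves, which moves the shares of all other leaf groups, and their part in the leaf ratios was not tested. The widest gaps were found for ABA synthesis and breakdown (0.531 in roots, 6.07 in leaves) and for expansins and xyloglucan enzymes (0.715 and 3.99). The leaf ratio of the ABA group rests on 44 drought and 8 control reads (interval 2.83 to 14.9). Its root members did not all go the same way: of 7 compared isogroups, 3 had a ratio above 1 and 4 below. Over the 10 compared root isogroups alone the expansin ratio was 0.923 (0.710 to 1.20), an interval that holds 1, and those of defence genes and histones were 0.860 and 0.893. Suberin, cutin and wax genes gave 0.544 in roots and 2.02 in leaves, and phenylpropanoid and lignin genes gave 0.265 and 1.32. Proteases and inhibitors were at 0.437 and 1.33 and defence genes at 0.682 and 1.54. Lipoxygenase and jasmonate genes were at 0.479 and 1.64, and genes of auxin, ethylene, gibberellin and cytokinin at 0.570 and 1.49. Phosphate, sulfate, potassium and metal transport gave 0.446 in roots and 1.44 in leaves, and AP2, ERF and DREB factors 0.656 and 1.44. The remaining groups were kinases of signalling (0.482 and 1.32), mitochondrial respiration (0.727 and 1.54), histones and DNA replication (0.765 and 1.37), and the methionine cycle with polyamines (0.797 and 1.18).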

How the results depend on the processing

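No paired analysis was possible because each condition had 1 root library. Of 35 alternatives to the main counts, 25 stayed within 1.5 times the reported value and 10 moved further. An edgeR exact test with an assumed coefficient of variation of 0.2 called 305 isogroups higher and 421 lower, and one with 0.4 called 132 and 111. A Benjamini-Hochberg adjusted MARS p under 0.05 called 958 higher and 1223 lower. A 2-fold rule of size took in 24.5% of isogroups on the higher side and 29.0% on the lower side, and an 8-fold rule 4.95% and 5.86%. No named isogroup changed direction. The balance of calls did turn with the coefficient of 0.4, over all isogroups as given and in several gene groups. Sucrose and starch had 5 higher and 2 lower, against 8 and 17, and wall hydrolases 2 and 0, against 3 and 10. The cytoskeleton had 1 and 0, against 2 and 12, and histones and DNA replication 1 and 0, against 1 and 5. MYB factors had 1 and 0, against 1 and 4. Proton pumps and sodium exchangers turned the other way, with 0 and 1, against 6 and 1. Of the 242 named isogroups, 148 lost their call with a coefficient of 0.4, 61 with 0.2 and 6 under Fisher's exact test. Other library totals lost at most 3 of these calls and moved the median log2 ratio by -0.04 to 0.05. Depth limits the isogroups near the minimum: of 3409 with 10 to 19 reads, 138 were called higher and 201 lower, against 71 and 57 of 203 with at least 100 reads. No alternative stands in for a replicate.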

Other observations

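Of the gene groups not described above, P450 enzymes, glycosyltransferases and detoxification transporters had 3 higher and 20 lower isogroups of 102. These are 2.94% and 19.6%, beside 8.38% and 10.8% of all isogroups. PEN3, an ABC transporter, had 0 drought reads and 40 control reads in its lower isogroup. Summed over its 2 compared isogroups, it had 12 and 45. Proton pumps and sodium exchangers had 6 higher and 1 lower of 46: ACA8, a calcium pump, had 68 drought reads and 6 control reads, and HA11, a plasma membrane proton pump, had 2 and 62 in 1 of 3 isogroups and 11 and 14 against 2 and 2 in the others, not called. Ubiquitin, proteasome and autophagy genes had 1 higher and 2 lower isogroups of 67 (1.49% and 2.99%, both below the shares of all isogroups). Outside the groups, ISU1, a scaffold for iron-sulfur clusters, was higher in 3 of 4 isogroups, with 62, 58 and 51 drought reads and no control read, and NADP-ME1, a malic enzyme, had 70 and 60 drought reads against 0 and 1 control reads in a pair of isogroups. ISU1 and NADP-ME1 were chosen after their values were seen.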
